A study of Mus musculus with 28 samples.

Results

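Liver organoids kept in expansion medium (EM) were set against pancreas across all genes of a mouse expression array, including genes that were high in both. The comparison rests on 4 of the 28 arrays of the series, 2 of EM organoids and 2 of pancreas, which were chosen by their labels and by no measured value. The organoids had been started from single cells isolated by Lgr5, a receptor for R-spondins, and were kept in the medium that lets them multiply, rather than in the differentiation medium used for another array of the series. The pancreas came from wildtype mice. Both groups carry the strain label C57BL/6, and the labels give no age or sex. Each array carried the sample's RNA in the green dye (Cy3) and a commercial mouse reference RNA (Stratagene) in the red dye (Cy5), with no dye swap. The labels call the arrays of a group biological replicates 1 and 2. They do not say whether these came from separate animals or cultures, so the spread between the arrays of a group may be technical. The p-values rest on such spread pooled over the 13 groups of all 28 arrays, and not on these 4 arrays alone.

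Liver and pancreas arise next to each other from the foregut endoderm, and both organs are drained by ducts lined with an epithelium that expresses keratin 19. Most of the adult pancreas consists of acinar cells, which make digestive enzymes in very large amounts, store them as inactive precursors in zymogen granules and release them into the ducts, while islets scattered between them make hormones. Proteins of the Reg family are small secreted lectins, which acinar cells make in quantity and which injured or inflamed gut and pancreas make more of.

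A level is given as the log2 of Cy3 over Cy5 after normalization within the array, so 0 means as much as the reference RNA, and a probe that is dim in both dyes also lies near 0. A difference is the level in EM organoids minus the level in pancreas on the log2 scale, with the standard error from a limma fit over all 28 arrays. A gene counts as called where the p adjusted by Benjamini-Hochberg over 21048 genes was under 0.05 and the difference was at least 1 in size. In Cy3, 53.82% and 31.39% of probes were well above background on the EM organoid arrays, against 17.75% and 44.02% on the pancreas arrays. The 100 brightest spots held 16.43% and 16.3% of the Cy3 signal on the EM organoid arrays, against 54.15% and 58.47% on the pancreas arrays. EM organoid replicate 2 and pancreas replicate 1 lay on the same slide and were scanned on the same day, while the other array of each group lay on a slide of its own within this comparison.

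EM organoids and pancreas differed at 5941 genes, 28.2% of those tested. Of these, 2175 genes (10.3%) were higher and 3766 (17.9%) lower in EM organoids. The largest differences were on the lower side: 188 genes were lower by at least 5 on the log2 scale and 18 were higher by as much. With the scanner software's own log ratio the split turned round, with 54.3% of the calls higher and 45.7% lower, against 36.6% and 63.4% here. From Cy3 alone, 26.8% of the calls were higher and 73.2% lower, with 3770 of the 21048 genes called higher and 10298 lower. The median difference of all genes was -0.10 here and -0.98 from Cy3 alone. Of 5939 called genes that could be compared within the shared slide, 5934 had the same sign there. The arrays on that slide also entered the calls, so most signs were bound to match. The count is therefore no test of an effect of slide or scan day. The arrays of the groups did not overlap at 65.7% of all genes tested. As a description across genes, which share probes and normalization, the levels of the EM organoid arrays correlated at r = 0.898 with each other, those of the pancreas arrays at 0.906, and EM organoid with pancreas arrays at 0.282 to 0.318.

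**Figure D1:**
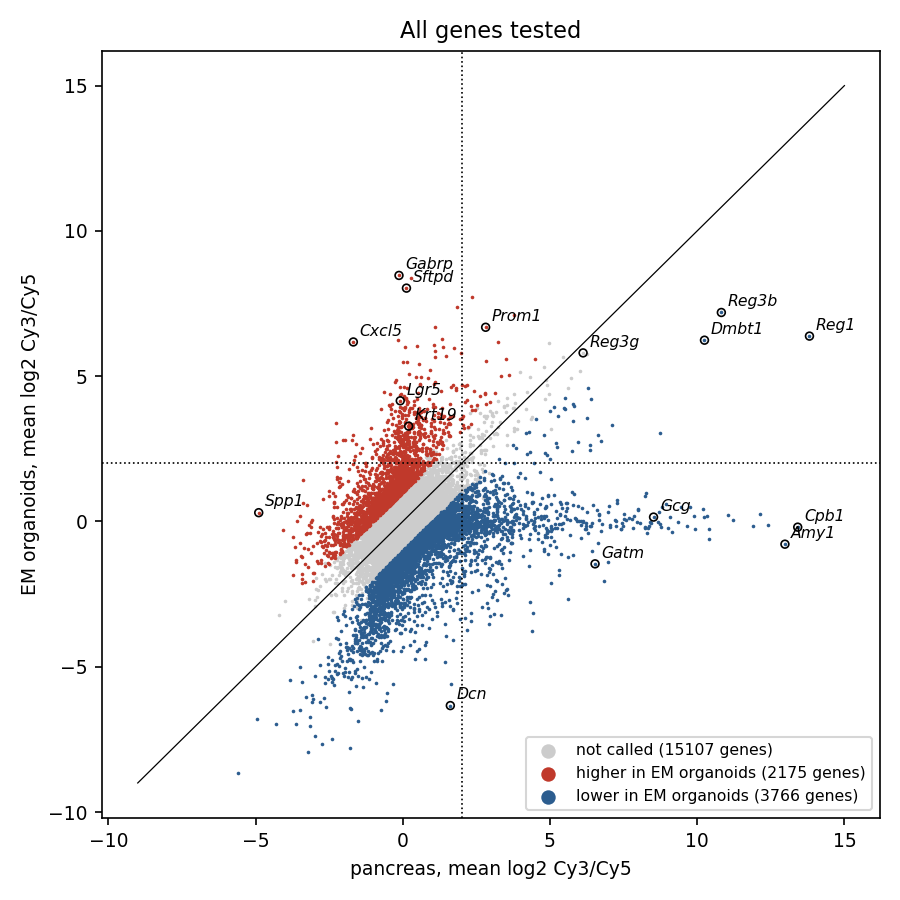
Mean level of each of the 21048 genes tested in EM organoids (vertical axis, log2 Cy3/Cy5) against pancreas (horizontal axis, log2 Cy3/Cy5), with called genes in colour, the diagonal of equal levels and dotted lines at a level of 2 in each group. The acinar genes lie far to the right near a level of 0 in EM organoids, and the 157 genes above 2 and above background in both groups, with Reg3b and Reg1 among them, lie in the upper right corner.

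The digestive enzymes of the acinar cell were the largest difference between the groups. Of 25 enzyme genes listed, 21 were on the array, and all 21 fell, with a median difference of -8.30 against -0.10 over all genes. Carboxypeptidase A1, Cpa1, which trims food proteins from their end, had levels of -0.14 and -0.35 in EM organoids, against 7.93 and 6.90 in pancreas (difference -7.65 ± 0.63, limma with Benjamini-Hochberg adjusted p = 8.35e-09). Its probe lies on chromosome 6 at 30595240-30595299 of the mm9 build. The EM organoid arrays were at the level of a dim probe and the pancreas arrays far above, with no overlap.

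Pancreatic amylase, Amy2a5, which splits starch, had levels of 0.09 and 0.38 in EM organoids, against 11.90 and 10.21 in pancreas (-10.82 ± 0.86, adjusted p = 5.26e-09). Carboxypeptidase B1, Cpb1, had levels of -0.15 and -0.25 in EM organoids, against 14.29 and 12.53 in pancreas (-13.61 ± 1.36, adjusted p = 1.14e-07). Pancreatic lipase, Pnlip, which digests fat, had levels of 0.23 and 0.06 in EM organoids, against 11.37 and 9.07 in pancreas (-10.07 ± 0.51, adjusted p = 8.41e-12). For all of these the EM organoid arrays lay near 0 and the pancreas arrays lay above 9.

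None of the 21 enzyme genes was well above background on both EM organoid arrays, and 13 were so on neither, whereas all 21 were so on both pancreas arrays. A gene that is not above background in a group has only a bound there, which was taken from the Cy3 channel after both channels had been normalized together and is open to dye bias, since no dyes were swapped. It is given here where Cy3 normalized on its own, called Cy3 alone, showed at least as large a fold, and otherwise the difference in levels is given. On that basis Amy2a5 was at least 11780-fold lower in EM organoids than in pancreas, Cpb1 at least 11300-fold, Cela3b, an elastase, at least 11250-fold, Pnliprp1, a lipase relative, at least 9468-fold, Pnlip at least 8111-fold and Cpa1 at least 7539-fold. Cy3 alone had a median difference of -0.98 over all genes. The condition set on the bounds was thus easier to meet for genes lower in EM organoids than for higher ones. With that median taken off, Cy3 alone would still meet the bound of Cpa1 (-13.92, against a bound of -12.88 on the log2 scale). It would fall short for Amy2a5 (-14.13 against -13.52), Cpb1 (-13.96 against -13.46), Cela3b, Pnliprp1 and Pnlip. Further on, the same holds for Spink1, Cuzd1, Serpini2, Erp27, Gcg, Chga, Reg2 and Reg3d. The folds of these genes are thus bounds under the joint normalization only. Not all other bounds were checked in this way. The gene annotated as the salivary amylase, Amy1, had a difference of -13.76 and was above background on 1 EM organoid array. The 60-base probes of the amylases share 21 to 23 bases at their best ungapped match, and those of the trypsins 18 or 19, but their match to each other's transcripts was not examined, so that the values of such close relatives are uncertain as to which gene they come from.

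Other proteins of the zymogen granule behaved likewise. Of 12 tested, 9 fell and 2 rose, with a median difference of -4.86. Spink1, the trypsin inhibitor that guards against early activation, was at least 6099-fold lower in EM organoids than in pancreas, with levels of 0.03 and -0.26 against 13.25 and 11.55. Cuzd1, a granule membrane protein, was at least 812-fold lower, and Serpini2, a serine protease inhibitor outside the list, at least 2603-fold. Sycn, syncollin, a granule protein, fell by 8.49 ± 0.87. The members that rose were Muc20, a mucin of the cell surface (2.41 ± 0.34), and Itpr3, a calcium release channel also found in duct cells (1.06 ± 0.20).

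The transcription factors of the acinar cell fell with its products in 4 of 8 cases, and none rose. Ptf1a, the DNA-binding subunit of the PTF1 complex that switches on the enzyme genes, had levels of -0.18 and -0.07 in EM organoids, against 6.08 and 6.04 in pancreas (-6.18 ± 0.24, limma with Benjamini-Hochberg adjusted p = 3.01e-13). Rbpjl, the other acinar subunit of that complex, had levels of -1.28 and -1.49 in EM organoids, against 7.42 and 6.50 in pancreas (-8.34 ± 0.72). Bhlha15, also called Mist1, which organizes the secretory cell, had levels of -0.47 and -0.35 in EM organoids, against 6.38 and 6.21 in pancreas (-6.70 ± 0.50). Nr5a2, a nuclear receptor that works with PTF1, was at least 7.69-fold lower in EM organoids. None of these genes overlapped between the groups. The other 4 members, among them Gata4 (0.35 ± 0.38, adjusted p = 0.52), did not pass the test.

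PTF1 binds a paired site made of an E-box and a TC-box, so promoters were searched on both strands for CACCTG, letters of the E-box, and TTTCCC, letters of the TC-box. The elements can share no more than the base at their ends. Sequences are those of RefSeq on GRCm38.p6, from 250 bases before to 50 after the first listed start of each gene. The E-box letters were found in 10 of the 17 enzyme genes that matched the promoter table (58.8%), against 20.0% of all 27025 promoters, and the TC-box letters in 7 (41.2%), against 25.2%. Both were found in 4 (23.5%), against 4.88% of all promoters. In the duct list described further on, the E-box letters were found in 11 of 18 promoters (61.1%) and the TC-box letters in 3 (16.7%). Of the 6 Reg family promoters, 4 held the E-box letters, 4 the TC-box letters and 2 both. A match is a description of letters and not a bound site. The promoters printed here were chosen after the counts were seen: 3 enzyme genes that hold both elements, and a pair of Reg genes with unlike differences. Capitals mark the elements, written as CAGGTG or GGGAAA where they lie on the other strand. Cela1 and Cela2a are elastases, and Prss2 is a trypsinogen.
Cela1, chr15:100687871-100688170, minus strand: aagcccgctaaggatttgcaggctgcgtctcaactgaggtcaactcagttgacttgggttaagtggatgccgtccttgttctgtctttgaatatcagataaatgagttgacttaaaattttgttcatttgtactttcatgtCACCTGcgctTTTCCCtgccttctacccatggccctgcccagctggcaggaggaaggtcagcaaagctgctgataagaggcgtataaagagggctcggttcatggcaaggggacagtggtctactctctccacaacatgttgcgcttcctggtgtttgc
Cela2a, chr4:141825956-141826255, minus strand: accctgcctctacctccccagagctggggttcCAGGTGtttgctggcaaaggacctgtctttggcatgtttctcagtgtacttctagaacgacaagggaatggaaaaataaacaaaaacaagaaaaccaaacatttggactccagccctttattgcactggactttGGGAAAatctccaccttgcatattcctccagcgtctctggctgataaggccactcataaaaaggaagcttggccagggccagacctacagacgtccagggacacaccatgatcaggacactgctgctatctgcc
Prss2, chr6:41521526-41521825, plus strand: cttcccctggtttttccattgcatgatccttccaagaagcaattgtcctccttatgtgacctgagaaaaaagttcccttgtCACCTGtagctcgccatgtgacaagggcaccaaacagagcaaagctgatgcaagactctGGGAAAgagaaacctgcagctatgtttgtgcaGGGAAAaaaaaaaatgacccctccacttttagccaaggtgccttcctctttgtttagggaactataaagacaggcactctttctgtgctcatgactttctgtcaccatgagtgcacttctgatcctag
Reg3b, chr6:78370635-78370934, plus strand: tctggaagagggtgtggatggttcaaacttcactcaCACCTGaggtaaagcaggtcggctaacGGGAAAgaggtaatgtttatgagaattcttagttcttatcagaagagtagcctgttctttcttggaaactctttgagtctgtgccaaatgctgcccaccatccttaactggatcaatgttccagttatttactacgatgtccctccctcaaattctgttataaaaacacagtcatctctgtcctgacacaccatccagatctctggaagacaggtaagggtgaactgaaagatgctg
Reg3g, chr6:78468825-78469124, minus strand: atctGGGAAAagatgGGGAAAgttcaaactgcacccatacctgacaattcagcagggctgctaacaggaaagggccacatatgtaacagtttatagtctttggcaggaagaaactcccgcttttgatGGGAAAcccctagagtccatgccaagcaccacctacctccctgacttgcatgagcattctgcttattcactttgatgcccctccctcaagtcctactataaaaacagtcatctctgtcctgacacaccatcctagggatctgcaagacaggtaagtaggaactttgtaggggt
The window of Cela1 holds an E-box and, close after it, a TC-box, and those of Cela2a and Prss2 hold them farther apart. That of Reg3b holds 1 of each, and that of Reg3g holds 3 TC-boxes and no CACCTG.

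The red channel, which should read the same reference RNA on every array, differed at the enzyme probes. For Cpa1 the median Cy5 intensity was 164 and 116 on the EM organoid arrays, against 21818 and 30288 on the pancreas arrays. The Cy3 intensity of that probe was 128 and 81 in EM organoids, against 211372 and 244223 in pancreas. After normalization, Cy5 was lower on the EM organoid arrays by at least 1 on the log2 scale at 20 of the 21 enzyme genes (95.2%), with a median difference of -4.96. Over all genes this held for 48 of 21048 (0.228%), and the median was 0.07. It held for 44 of the 188 genes called lower by at least 5 (23.4%), for 3 of the 6 Reg genes and for 2 of the 21 islet genes described further on. In the other direction, Cy5 was higher on the EM organoid arrays by at least 1 at 81 of all 21048 genes, at 7 of the 18 genes called higher by at least 5 and at 3 of the 27 duct genes, Krt7 (2.93), Cdh1 (1.51) and Car2 (1.20), named after their values were seen. Cy5 is the denominator of the level, and where it was lower on the EM organoid arrays the difference in levels was smaller than that of the sample channel: for Cpa1 it was -7.65 as a log ratio and -13.70 in normalized Cy3. For Ptf1a, where Cy5 was 0.44 higher, it was -6.18 as a log ratio and -5.74 in normalized Cy3. At Krt19 the Cy5 intensity was 9677 and 10100 on the EM organoid arrays, against 8924 and 6344 on the pancreas arrays. The cause of the Cy5 difference was not tested.

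**Figure D2:**
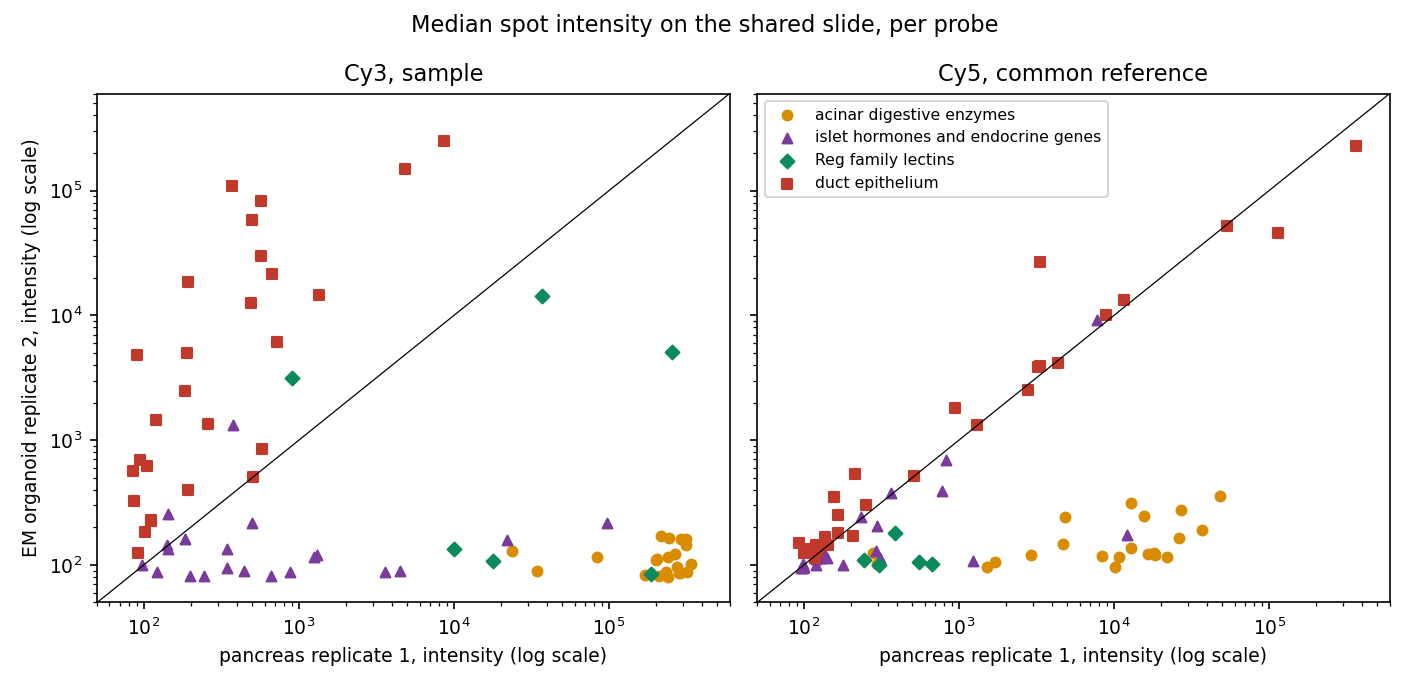
Median spot intensity on EM organoid replicate 2 (vertical, log scale) against pancreas replicate 1 (horizontal, log scale), which lie on the same slide, for Cy3 (left panel, sample) and Cy5 (right panel, common reference), with 1 point per gene of 4 lists and the line of equal intensity. The acinar enzymes lie far right of the line in Cy3 and many of them also in Cy5, where Cpa1 read 116 on the EM organoid array and 21818 on the pancreas array, while most duct genes lie near the line in Cy5.

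Genes that fold and export new proteins in the endoplasmic reticulum, a compartment that fills much of the acinar cell, fell in 17 of 26 cases and rose in none, with a median difference of -2.06. Pdia2, the disulfide isomerase of the pancreas, had levels of 0.05 and -0.11 in EM organoids, against 8.77 and 8.04 in pancreas (-8.43 ± 0.74). Derl3, which helps to clear misfolded proteins, fell by 6.83 ± 0.55, and Erp27, a relative of the disulfide isomerases, was at least 120-fold lower in EM organoids. The general chaperone Hspa5 (-0.99 ± 0.44, limma with Benjamini-Hochberg adjusted p = 0.0838) and the stress regulator Xbp1 (0.53 ± 0.35, adjusted p = 0.244) were not called, and are named here after their values were seen.

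Genes listed under amino acid synthesis and transport fell in 16 of 22 cases and rose in none, with a median of -2.02. Gatm, which makes the creatine precursor, had levels of -1.72 and -1.20 in EM organoids, against 6.51 and 6.55 in pancreas (-7.99 ± 0.56, limma with Benjamini-Hochberg adjusted p = 9.49e-10). Gamt, the enzyme that completes creatine, had levels of -1.44 and -0.86 in EM organoids, against 6.24 and 5.35 in pancreas (-6.95 ± 0.41). Gnmt, which methylates glycine, had levels of 0.01 and 0.77 in EM organoids, against 6.72 and 6.44 in pancreas (-6.19 ± 0.48). None of these overlapped between the groups.

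Islet hormones and genes of the hormone granule fell in 17 of 21 cases and none rose, with a median of -3.69. Glucagon, Gcg, had levels of 0.16 and 0.14 in EM organoids, against 9.0 and 8.04 in pancreas, and was at least 216-fold lower. Insulin 2, Ins2, had levels of -0.14 and 1.42 in EM organoids, against 7.61 and 6.93 in pancreas (-6.63 ± 0.77, limma with Benjamini-Hochberg adjusted p = 7.74e-07). EM organoid replicate 2 lay above replicate 1 for Ins2, and both lay below the pancreas arrays. Ins2 was above background on 1 EM organoid array, and Ins1 (levels of 0.57 and 1.19 in EM organoids, against 8.64 and 7.84 in pancreas) on neither. Chromogranin A, Chga, a protein of the hormone granule, was at least 211-fold lower in EM organoids, and somatostatin, Sst, at least 32.1-fold.

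Transcription factors of the endocrine lineage were mixed, with 2 of 10 higher and 3 lower. With the scanner software's log ratio none was higher and 2 were lower. From Cy3 alone none was higher and 8 were lower, against 3770 and 10298 of all 21048 genes. Among those that fell, Nkx6-1, of beta cells, was lower by 2.13 ± 0.29. Pdx1, which beta cells need and which is also active in the early pancreas and duodenum, had levels of 1.95 and 1.82 in EM organoids, against 0.42 and 0.96 in pancreas (1.20 ± 0.20, limma with Benjamini-Hochberg adjusted p = 5.4e-05). Isl1 had levels of 2.19 and 1.97 in EM organoids, against -0.18 and 0.46 in pancreas (1.94 ± 0.29). Pdx1 was above background on 1 array of each group, and these rises depended on the scaling. With the scanner software's log ratio neither passed the test (Pdx1 1.01, Isl1 2.66). From Cy3 alone both turned negative (Pdx1 -0.76, Isl1 -0.17), though less so than the median of all genes there, -0.98.

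**Figure D3:**
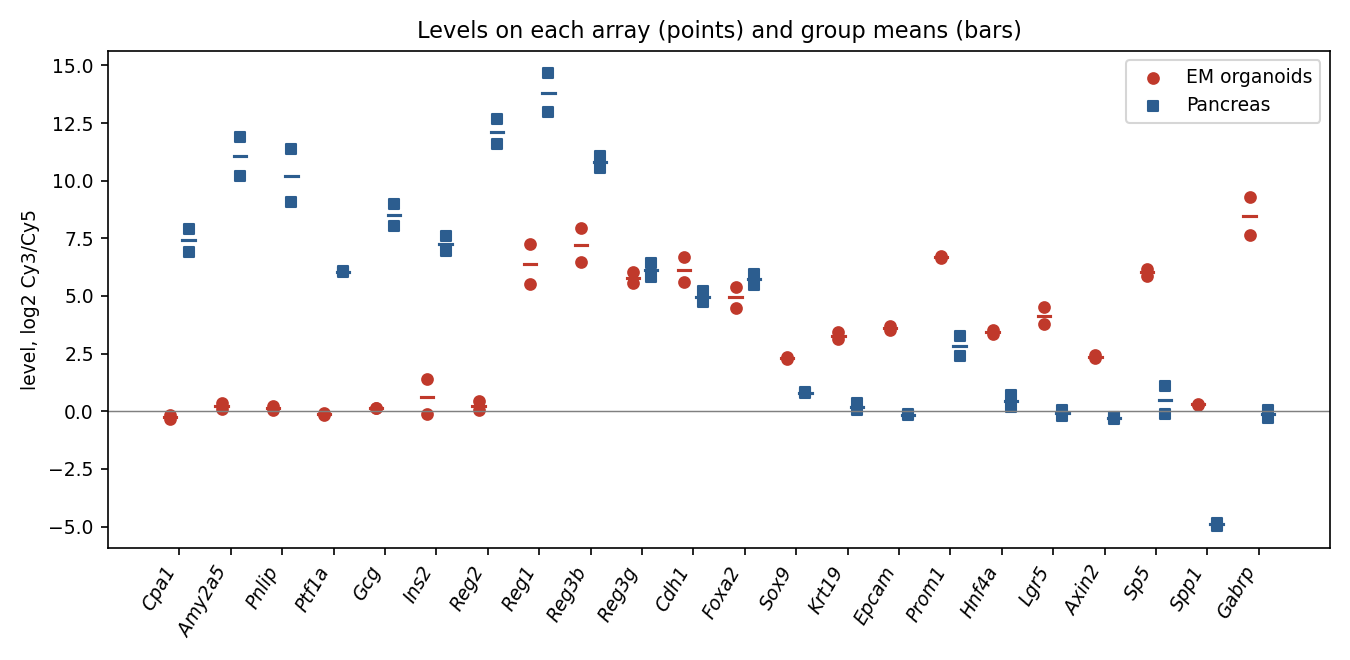
Level on each array (points, log2 Cy3/Cy5) and group mean (bars) of 22 genes named in the text, with EM organoids left of pancreas for each gene. Acinar and islet genes are near 0 in EM organoids and above 5 in pancreas, Reg3b, Reg3g, Cdh1 and Foxa2 are high on all 4 arrays, and the duct and Wnt genes between Sox9 and Sp5 are higher in EM organoids. Hnf4a, which stands among them, is shown at its brightest probe only, and its probes were called in opposite directions.

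The Reg family divided within itself. Of the 6 genes tested, 5 fell, but 3 of the 6 were also high in EM organoids. Reg3b, an antibacterial lectin that the pancreas makes during pancreatitis, had levels of 6.46 and 7.93 in EM organoids, against 11.09 and 10.55 in pancreas. Its difference was -3.63 ± 0.74 (95% interval -5.17 to -2.08, limma with Benjamini-Hochberg adjusted p = 0.000488), and the groups did not overlap. With the scanner software's log ratio the Reg3b difference was -3.08 and missed the test (adjusted p = 0.195). Its probe lies on chromosome 6 at 78323323-78323382 of mm9.

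Reg1, first described as a protein of pancreatic stones and regenerating islets, had levels of 5.52 and 7.24 in EM organoids, against 14.65 and 12.97 in pancreas (-7.43 ± 1.44, adjusted p = 0.000304), and with the scanner software's log ratio -4.34 (adjusted p = 0.0963). Reg3g, a lectin that binds Gram-positive bacteria in the gut, had levels of 5.54 and 6.06 in EM organoids, against 6.43 and 5.82 in pancreas (-0.32 ± 0.24, 95% interval -0.83 to 0.18, limma with Benjamini-Hochberg adjusted p = 0.316). The Reg3g arrays overlapped between the groups and their difference did not pass the test. From Cy3 alone the difference of Reg3g was 0.11, against a median of -0.98 over all genes.

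The remaining Reg genes were seen in pancreas. Reg2, close to Reg1, had levels of 0.43 and 0.07 in EM organoids, against 12.67 and 11.58 in pancreas (-11.87 ± 0.27, adjusted p = 1.19e-16), and was at least 9078-fold lower in EM organoids. Reg3d was at least 897-fold lower, and Reg3a fell by 8.32 ± 0.25. None of these 3 was above background on an EM organoid array. The Reg3 probes share 17 to 22 of 60 bases with each other and those of Reg1 and Reg2 share 20. Levels in the other groups of the series, as a description, set Reg3b apart from most of them: its mean was 7.19 in EM organoids, 10.82 in pancreas, 4.79 on the array of organoids in differentiation medium and 0.04 in adult liver, 0.05 in sorted duct cells and 0.13 in white adipose tissue. Reg2, by contrast, averaged 12.12 in pancreas, 0.25 in EM organoids and 0.02 in organoids in differentiation medium.

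A group of 157 genes, 0.746% of those tested, was high in both EM organoids and pancreas, with a mean level of at least 2 in each and a signal above background on all 4 arrays. They made up 23.5% of the 669 genes that met this in EM organoids and 15.9% of the 985 that met it in pancreas. Of the 157, 26 were called higher and 39 lower in EM organoids, while 92 were not called. This share of 41.4% called compares with 28.2% over all genes. The median difference was 0.04. For 28 genes the whole 95% interval of the difference lay between -1 and 1. The same genes had a level of at least 2 in 144 cases on the array of organoids in differentiation medium, in 80 in adult liver, 55 in sorted duct cells, 35 in muscle and 18 in white adipose tissue.

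Besides the Reg genes, the genes with the highest level in both included several of epithelia. Dmbt1, a scavenger receptor of mucosal surfaces, had levels of 5.63 and 6.85 in EM organoids, against 10.95 and 9.54 in pancreas (-4.01 ± 1.44, limma with Benjamini-Hochberg adjusted p = 0.0303). Its call was lost with the scanner software's log ratio (adjusted p = 0.192) and without EM organoid replicate 1, EM organoid replicate 2 or pancreas replicate 1, with differences of -3.40, -4.62 and -3.30. Clusterin, Clu, a secreted chaperone, had levels of 5.22 and 6.28 in EM organoids, against 6.65 and 5.84 in pancreas (-0.50 ± 0.49, adjusted p = 0.466). Keratin 23, Krt23, had levels of 5.15 and 6.17 in EM organoids, against 5.66 and 5.25 in pancreas (0.20 ± 0.67, adjusted p = 0.854). For Clu and Krt23 the arrays of the groups overlapped. Cy5 was 1.46 higher on the EM organoid arrays for Clu. From Cy3 alone its difference was 1.95, against a median of -0.98 over all genes.

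E-cadherin, Cdh1, the adhesion molecule of epithelia, had levels of 5.60 and 6.67 in EM organoids, against 4.72 and 5.20 in pancreas (1.18 ± 0.57, interval -0.01 to 2.36). The forkhead factor Foxa2, which opens chromatin in foregut endoderm, had levels of 4.48 and 5.40 in EM organoids, against 5.49 and 5.97 in pancreas (-0.79 ± 0.51). Neither was called (limma with Benjamini-Hochberg adjusted p of 0.106 for Cdh1 and 0.237 for Foxa2), although the arrays of the groups overlapped for neither. Ambp, the precursor of alpha-1-microglobulin, differed by 0.01 ± 0.95. Of the tight junction genes named here, Lsr, a receptor at tricellular junctions, rose in level by 1.13 ± 0.26. The level of Cldn3, a sealing claudin, fell by 1.73 ± 0.53. For Cldn3, Cy5 was 1.48 higher on the EM organoid arrays, and normalized Cy3 differed by -0.25. Cy3 alone gave 0.56 for Cldn3, against a median of -0.98 over all genes. Urah, which breaks down urate products (-0.85 ± 0.38), and Arhgef16, a guanine nucleotide exchange factor (-0.57 ± 0.31), were not called.

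**Figure D4:**
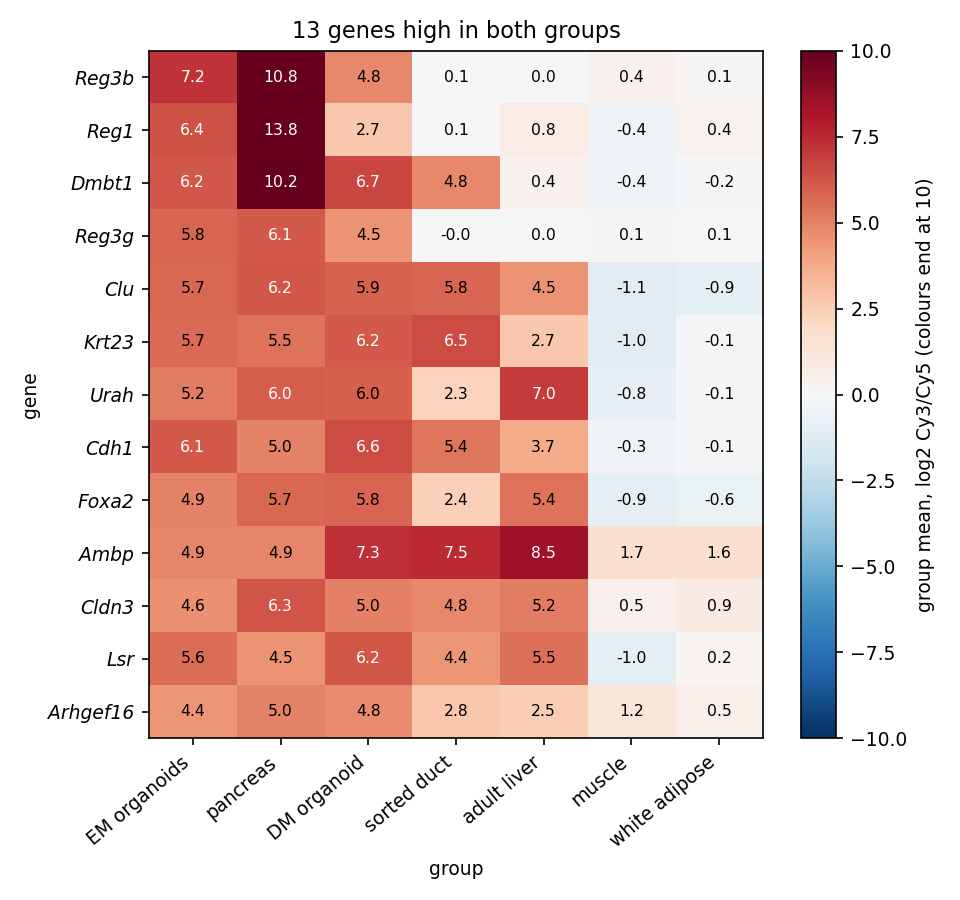
Group mean level (log2 Cy3/Cy5, written in each cell and coloured) of 13 of the 15 genes with the highest level in both groups, in EM organoids, pancreas and 5 other groups of the series. Reg3b, Reg1 and Reg3g are higher in both kinds of organoid and in pancreas than in the other groups shown, whereas Foxa2, Ambp and Urah are also high in adult liver.

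Genes of the duct epithelium, which both organs have, were mostly higher in EM organoids: 17 of 27 rose and 2 fell, with a median of 2.15. Krt19, the duct keratin, had levels of 3.45 and 3.11 in EM organoids, against 0.36 and 0.04 in pancreas (3.08 ± 0.53, limma with Benjamini-Hochberg adjusted p = 9.73e-05). Epcam, an adhesion molecule of duct cells, had levels of 3.54 and 3.70 in EM organoids, against -0.16 and -0.13 in pancreas (3.77 ± 0.51). Osteopontin, Spp1, a secreted phosphoprotein of duct cells, had levels of 0.28 and 0.33 in EM organoids, against -4.82 and -4.96 in pancreas (5.19 ± 0.52, adjusted p = 1.32e-07). The arrays of the groups did not overlap for any of these, and the replicates of each group lay close together.

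Bicc1, an RNA-binding protein of tubular epithelia, had levels of 3.66 and 3.72 in EM organoids, against -0.19 and -0.63 in pancreas (4.10 ± 0.22). Carbonic anhydrase 2, Car2, which helps ducts to make bicarbonate, had levels of 3.96 and 4.64 in EM organoids, against -0.29 and 0.38 in pancreas (4.26 ± 0.61). Cftr, the chloride channel of duct cells, rose by 2.45 ± 0.18. From Cy3 alone the difference of Cftr was 0.11 and not called, against a median of -0.98 over all genes. Sox9, the transcription factor of duct and progenitor cells, had levels of 2.27 and 2.36 in EM organoids, against 0.85 and 0.78 in pancreas (1.51 ± 0.27, limma with Benjamini-Hochberg adjusted p = 0.000123). Prom1, a membrane protein used as a marker of progenitor cells, had levels of 6.72 and 6.65 in EM organoids, against 2.38 and 3.25 in pancreas (3.87 ± 0.46), but its call was lost with the scanner software's log ratio (1.64, adjusted p = 0.388).

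The duct genes that fell were Anxa13, an epithelial annexin (levels of 2.57 and 2.87 in EM organoids, against 4.82 and 5.56 in pancreas), and Tm4sf4, a tetraspan membrane protein (1.19 and 2.14 in EM organoids, against 4.06 and 3.93 in pancreas). In bulk RNA, fewer cells of a type and less RNA of a gene per cell cannot be told apart: whole pancreas holds duct cells among a majority of acinar cells. The duct list was thus set against a tissue in which the acinar list had a summed normalized Cy3 signal of 30177498 and 25227799 units, against 2762 and 2909 in EM organoids. The part of this in the duct differences was not tested.

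Transcription factors of the foregut, liver and pancreas rose in 13 of 25 cases and fell in 3, with a median of 1.20. Ehf, an epithelial ETS factor, had levels of 4.64 and 5.32 in EM organoids, against 0.26 and 0.67 in pancreas (4.51 ± 0.22, limma with Benjamini-Hochberg adjusted p = 6.84e-12). Hhex, which the early liver and pancreas buds need, had levels of 3.98 and 4.52 in EM organoids, against 0.02 and 0.08 in pancreas (4.20 ± 0.35). Onecut2, a factor of the biliary lineage, was at least 14.1-fold higher in EM organoids. None of the arrays overlapped for these 3 genes. The members that fell were Nr5a2, given above, Nr1h4, the bile acid receptor (-1.69 ± 0.40), and Tbx3 (-1.68 ± 0.35).

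Hnf4a, a nuclear receptor of hepatocytes and gut, had levels of 3.52 and 3.33 in EM organoids, against 0.20 and 0.73 in pancreas at its brightest probe (2.96 ± 0.22). Of its 3 probes, 1 was called higher and 1 lower, and the mean of the probes gave 0.32 (limma with Benjamini-Hochberg adjusted p = 0.204), so no direction can be given for the gene. Foxa3 (0.10 ± 0.45) and Gata6 (0.59 ± 0.28) were not called.

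Targets of Wnt signalling were mostly higher in EM organoids, with 11 of 21 up, 3 down and a median of 1.41. Sp5, a transcription factor that Wnt induces directly, had levels of 5.88 and 6.18 in EM organoids, against 1.09 and -0.13 in pancreas (5.55 ± 0.32). Lgr5, by which the founding cells were isolated, had levels of 3.79 and 4.52 in EM organoids, against -0.22 and 0.05 in pancreas (4.24 ± 0.37, limma with Benjamini-Hochberg adjusted p = 1.61e-08). The adhesion receptor Cd44 rose by 3.24 ± 0.58. The feedback inhibitor Axin2 had levels of 2.30 and 2.44 in EM organoids, against -0.35 and -0.23 in pancreas (2.66 ± 0.23). From Cy3 alone its difference was 0.30 and not called, against a median of -0.98 over all genes.

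Sp5, Lgr5 and Axin2 were above background on no pancreas array. The Wnt targets that fell were Lef1 (-2.11 ± 0.28), Tbx3, given above, and the inhibitor Nkd1 (-1.53 ± 0.41). Lef1 was above background on no EM organoid array and on only 1 pancreas array. In the Notch pathway, 4 of 12 genes rose and 1 fell. From Cy3 alone 2 of the 12 rose and 5 fell, against 3770 and 10298 of all 21048 genes. The ligand Dll1 rose by 3.74 ± 0.44, the target Hes1 by 2.12 ± 0.27 and the feedback gene Nrarp by 1.60 ± 0.51. The target Hey1 fell by 1.56 ± 0.42. The median of the pathway was -0.14 here and 0.96 with the scanner software's log ratio. From Cy3 alone, where the median of all genes was -0.98, Nrarp turned to -0.76 and Hes1, at 0.92, was not called.

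Genes of replication and mitosis rose in 17 of 32 cases and fell in 1, with a median of 1.14. With the scanner software's log ratio 26 rose, from Cy3 alone 23, and over all alternatives between 6 and 26. The proliferation marker Mki67 had levels of -1.74 and -1.98 in EM organoids, against -3.72 and -3.74 in pancreas (1.87 ± 0.30, limma with Benjamini-Hochberg adjusted p = 6.99e-05). These are from its brightest probe, and 1 of its 2 probes was called. Of the replicative helicase, Mcm4 rose by 3.21 ± 0.27 and Mcm6 by 2.83 ± 0.29, and the mitotic kinesin Kif20a by 3.14 ± 0.27. All these levels were below those of the reference RNA in EM organoids, except for Kif20a on EM organoid replicate 2 (0.16). The checkpoint kinase Bub1 fell by 2.30 ± 0.28, but the mean of its probes gave -0.90 and no call.

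The gene with the largest rise was Gabrp, the pi subunit of the GABA receptor, with levels of 7.64 and 9.29 in EM organoids, against -0.29 and 0.04 in pancreas (8.59 ± 0.43, limma with Benjamini-Hochberg adjusted p = 8.48e-12). Surfactant protein D, Sftpd, a lectin that binds microbes, had levels of 7.15 and 8.91 in EM organoids, against 0.01 and 0.24 in pancreas (7.90 ± 0.43). Complement factor I, Cfi, which cuts C3b and C4b, had levels of 7.71 and 9.05 in EM organoids, against 0.07 and 0.48 in pancreas (8.10 ± 0.66). For these 3 genes EM organoid replicate 2 was the higher of the pair, and no pancreas array was above background.

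C4bp, which holds the same complement step in check, rose by 6.43 ± 0.49. Vitamin D-binding protein, Gc, had levels of 6.08 and 7.30 in EM organoids, against 1.15 and 1.06 in pancreas (5.59 ± 0.54). Ccn2, a matricellular protein, had levels of 3.15 and 3.65 in EM organoids, against -1.71 and -2.85 in pancreas (5.68 ± 0.68). Plet1, a surface protein of epithelial progenitors, had levels of 6.95 and 7.83 in EM organoids, against 1.71 and 1.97 in pancreas (5.55 ± 0.45). Aspa, aspartoacylase, rose by 5.46 ± 0.53 and Palmd, palmdelphin, by 5.40 ± 0.63. No arrays of the groups overlapped for these genes, which was a condition for naming a gene among the largest rises.

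Epithelial chemokines and antimicrobial genes rose in 10 of 19 cases and fell in 3, with a median of 1.37. Cxcl5, which attracts neutrophils, had levels of 6.05 and 6.31 in EM organoids, against -1.46 and -1.90 in pancreas, and was at least 158-fold higher. Lipocalin 2, Lcn2, which withholds iron from bacteria, had levels of 4.54 and 5.05 in EM organoids, against -0.28 and -0.22 in pancreas (5.04 ± 0.35). Lactoferrin, Ltf, which also binds iron, rose by 4.85 ± 0.59. Cy5 was also higher on the EM organoid arrays, by 2.22 for Lcn2 and 3.62 for Ltf. Lysozyme 1, Lyz1, of Paneth cells, was at least 25.3-fold lower in EM organoids. The calls of Cxcl1 (-2.86 ± 0.80) and Cxcl10 (-2.21 ± 0.83) come from probes that were not well above background on any of the 4 arrays.

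Plasma proteins that hepatocytes secrete were called in 6 of 21 cases, 5 higher and 1 lower, a share near the 28.2% over all genes. From Cy3 alone 4 were higher and 8 lower, against 3770 and 10298 of all 21048 genes. Albumin, Alb, had levels of 1.59 and 1.24 in EM organoids, against 0.17 and 0.66 in pancreas (1.00 ± 0.89, limma with Benjamini-Hochberg adjusted p = 0.405). Transferrin, Trf, had levels of 5.57 and 6.44 in EM organoids, against 1.13 and 1.62 in pancreas (4.63 ± 0.73). Haptoglobin, Hp, rose by 3.59 ± 0.49 and complement C3 by 2.71 ± 0.45, while prothrombin, F2, was at least 4.75-fold lower in EM organoids. The median of the list was 0.70 here, 1.22 with the scanner software's log ratio and -0.37 relative to all genes from Cy3 alone. Of 17 enzymes of mature hepatocytes, 13 were above background on neither EM organoid array and 12 on neither pancreas array, and 1 was called lower, Ass1 of the urea cycle (-1.29 ± 0.32). From Cy3 alone 16 were lower and the call of Ass1 was lost.

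Junction genes rose in 15 of 25 cases and fell in 3, with a median of 1.19. Cldn2, a claudin that forms a cation pore, had levels of 5.59 and 6.42 in EM organoids, against 0.28 and -0.10 in pancreas (5.91 ± 0.37). Cldn4 rose by 3.57 ± 0.26 and Cldn8 by 2.93 ± 0.36, and the call of Cldn4 was lost from Cy3 alone. Cldn10, also a pore claudin, was at least 25.8-fold lower in EM organoids, with levels of 0.11 and 0.07 against 5.43 and 6.32 in pancreas. The gap junction gene Gjb2, which links acinar cells, had levels of 2.56 and 2.33 in EM organoids, against 6.17 and 6.53 in pancreas (-3.90 ± 0.43).

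Trefoil, mucin and gut genes moved both ways, with 6 of 16 higher and 3 lower. From Cy3 alone 2 of the 16 were higher and 8 lower, against 3770 and 10298 of all 21048 genes. The median of the list was 0.09 here and 0.04 relative to all genes from Cy3 alone. The microvillus protein villin, Vil1, had levels of 4.75 and 5.67 in EM organoids, against 0.79 and 1.09 in pancreas (4.27 ± 0.37). Spink4, a protease inhibitor, rose by 2.97 ± 0.32 and Cdh17, a cadherin of gut epithelium, by 2.96 ± 0.35. From Cy3 alone neither was called, with differences of 0.84 for Spink4 and 0.85 for Cdh17, against a median of -0.98 over all genes. The trefoil peptide Tff2 had levels of 2.40 and 3.13 in EM organoids, against 6.90 and 6.56 in pancreas (-3.97 ± 0.39). The mucin Muc5ac fell by 2.88 ± 0.19, and Agr2, which folds mucins, was at least 2.42-fold lower.

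In metabolism, cholesterol synthesis and glycolysis were higher in EM organoids. Of 18 genes of cholesterol synthesis and uptake, 12 rose and 1 fell, with a median of 1.43. The synthase Hmgcs1 rose by 2.65 ± 0.26 and the epoxidase Sqle by 2.57 ± 0.33, while Insig1, which holds the pathway back, fell by 1.52 ± 0.35. Glycolysis genes rose in 13 of 16 cases and fell in 1, with a median of 1.90. Lactate dehydrogenase A, Ldha, had levels of -0.45 and -1.29 in EM organoids, against -3.49 and -3.85 in pancreas (2.80 ± 0.38). Hk1, which traps glucose, rose by 2.31 ± 0.20 at its brightest probe and by 0.56, not called, over the mean of its probes, and Pgk1 rose by 2.29 ± 0.19. Pdk1, a brake on mitochondrial pyruvate use, fell by 1.52 ± 0.23, and this call was lost from Cy3 alone.

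Genes of glutathione and oxidative stress were split, with 8 of 17 higher and 6 lower. The gut glutathione peroxidase Gpx2 had levels of 5.80 and 6.33 in EM organoids, against 0.98 and 1.12 in pancreas (5.01 ± 0.32, limma with Benjamini-Hochberg adjusted p = 2.16e-10). Heme oxygenase, Hmox1, had levels of -2.80 and -2.47 in EM organoids, against 1.61 and 1.99 in pancreas (-4.44 ± 0.44). Metallothionein 2, Mt2, fell by 4.35 ± 1.1 and Gstm2 by 3.29 ± 0.36, while Gsto1 rose by 2.74 ± 0.30 and Akr1b8 by 2.44 ± 0.48. The median of the list was -0.05 here and 1.06 with the scanner software's log ratio.

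**Figure D5:**
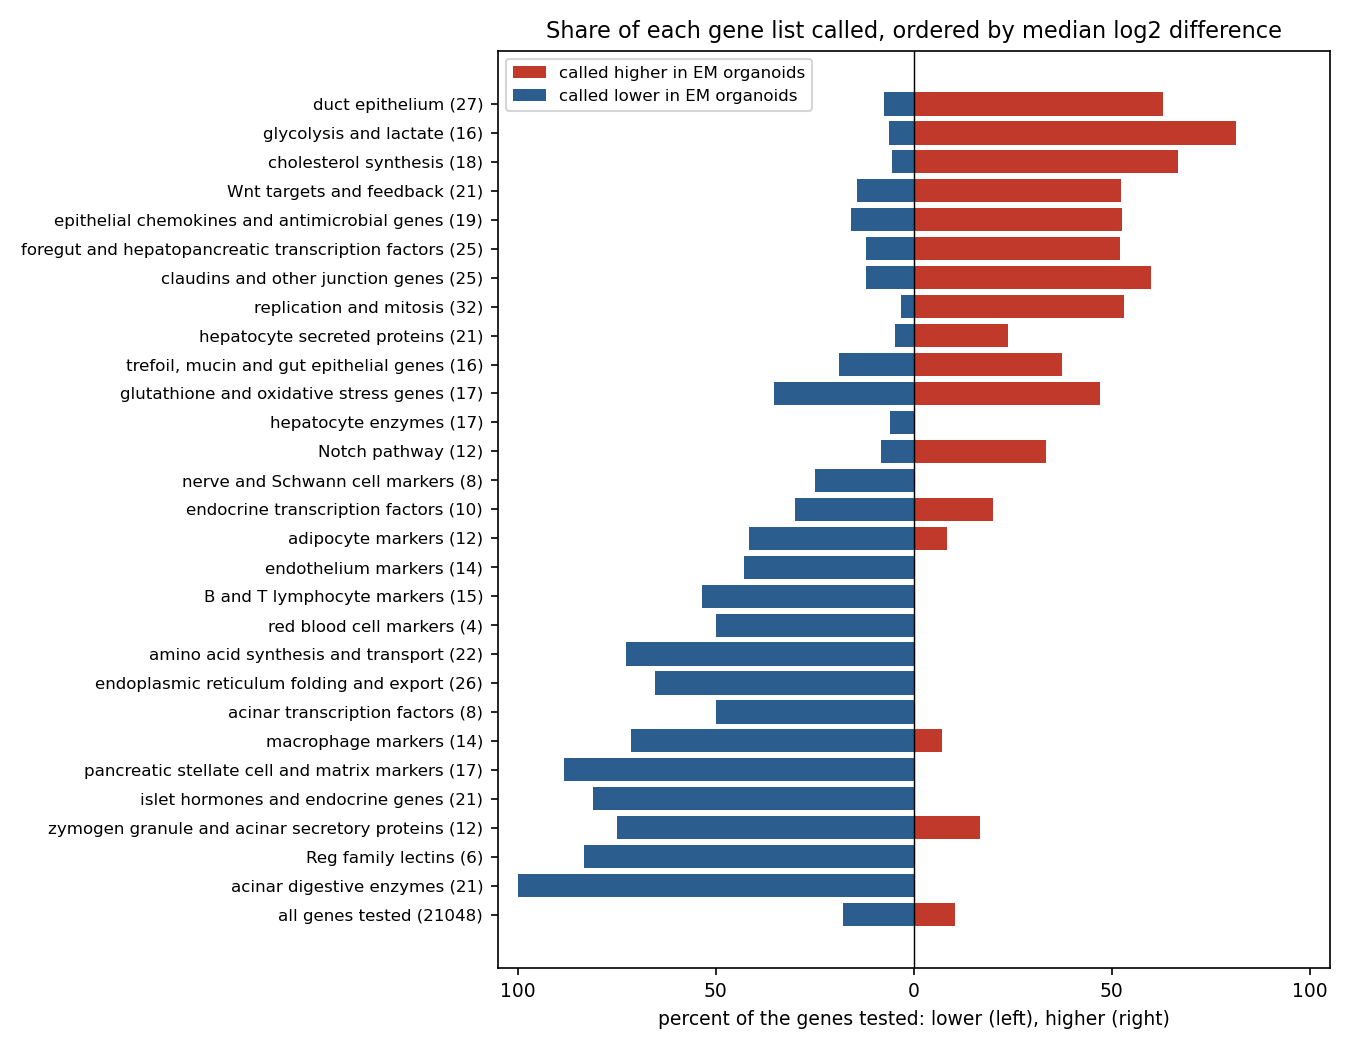
Percent of the tested genes of each list called lower (left of 0) or higher (right of 0) in EM organoids, with the number tested in brackets, ordered by the median log2 difference and with all genes tested at the bottom. Glycolysis, duct and cholesterol genes lie mostly to the right and acinar, Reg, islet and stellate cell genes to the left, against 10.3% higher and 17.9% lower over all genes.

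Pancreas, as a whole tissue, also holds cells other than epithelium, and many markers of some of these cells fell. Over all genes, 17.9% were called lower. Of 17 markers of stellate cells and matrix, 15 fell and none rose, with a median of -3.17. The matrix proteoglycan decorin, Dcn, had levels of -6.33 and -6.35 in EM organoids, against 1.22 and 2.02 in pancreas (-7.95 ± 0.53, limma with Benjamini-Hochberg adjusted p = 8.25e-10). Collagen gene Col1a2 fell by 4.93 ± 0.42 and vimentin, Vim, by 4.73 ± 0.41. The summed normalized Cy3 signal of the list was 16114 and 7807 units in EM organoids, against 62599 and 94353 in pancreas, and 5 of the 17 markers were above background on neither EM organoid array.

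Macrophage markers fell in 10 of 14 cases and rose in 1. Lysozyme 2, Lyz2, fell by 7.25 ± 0.45, Adgre1, the F4/80 antigen, was at least 7.07-fold lower and the complement gene C1qc at least 7.34-fold lower, while Cd14, a receptor for bacterial lipopolysaccharide that epithelia can also make, rose by 4.81 ± 0.45. Their summed signal was 27404 and 27993 units in EM organoids, against 31712 and 34657 in pancreas. Endothelial markers fell in 6 of 14 cases (Flt1 by 4.58 ± 0.89, Plvap by 3.81 ± 0.48 and Vwf by 3.19 ± 0.38) and lymphocyte markers in 8 of 15 (Cd3e by 4.16 ± 0.42), with none higher. Among 12 adipocyte markers, 5 fell, with Fabp4 at least 55.0-fold lower, and 1 rose, Cidea, of lipid droplets, by 3.85 ± 0.86, a call that was lost from Cy3 alone. Of red blood cell markers 2 of 4 fell, and the globin Hba-a1 fell by 7.36 ± 0.87. Of nerve markers 2 of 8 fell, Sox10 (-1.31 ± 0.43) and Tubb3 (-1.30 ± 0.21), a share near the 17.9% called lower over all genes. The median of the nerve list was -0.19, against -0.10 over all genes.

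The summed signal was 2829 and 3483 units in EM organoids, against 9604 and 8803 in pancreas, for the endothelial list, and 2868 and 2784 in EM organoids, against 12345 and 9911 in pancreas, for the lymphocyte list. It was 2473 and 3295 in EM organoids, against 14625 and 18239 in pancreas, for the adipocyte list. For the red blood cell list it was 456 and 453 in EM organoids, against 49313 and 33030 in pancreas. The nerve list was the exception, with 6985 and 8114 in EM organoids, against 6961 and 5630 in pancreas. The part of these cells in the differences of other genes was not tested. Of 5 Y-linked and X inactivation genes, 3 were called lower in EM organoids, among them Eif2s3y (levels of -2.96 and -2.64, against 0.29 and 1.02 in pancreas, at least 5.48-fold lower) and Ddx3y (at least 3.82-fold lower). Neither was above background on both pancreas arrays. Sex is not given by the labels, and an effect of it cannot be told apart from the difference between EM organoids and pancreas.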

How the data were processed

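Values are Agilent 2-colour spot intensities, deposited by the authors as scanner output of Feature Extraction 10.5.1.1, per the file headers (8.5.1.1 per the submitters' processing notes). The deposited value table holds log10 ratios of Cy5 over Cy3 and equals the scanner log10 ratio exactly. Its column medians are 0 and 0 for EM organoids and 0.102 and 0 for pancreas, and its sign was turned. From the deposited intensities, log2 ratios of Cy3 over Cy5 were computed in R 4.3.3 with limma 3.58.1: normexp background correction with an offset of 50 on all spots, then loess within each array with control spots at weight 0. Spots marked as outliers by the scanner software were left out.

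Probes well above background on at least 2 of 28 arrays were kept, and a gene with several probes was taken at its brightest probe. Of 7027 such genes, 72 had probes called in opposite directions, among the named genes Hnf4a, and 728 had all probes called in the same direction. Only 1 of 2 probes was called for Mki67, Dcn, Col1a2, Adgre1, Gjb2, C4bp, Tbx3, Nkd1, Insig1, Pdk1, Ddx3y and Bub1. Names follow RefSeq for 16788 genes and the files for 4260. 1 model was fitted over 13 groups, with 15 residual degrees of freedom, and the comparison was EM organoids minus pancreas. The script was tested on simulated data. The number of arrays limits the precision.

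Named genes are the 12 largest rises and 12 largest falls, up to 3 rises and 3 falls per gene list, the key genes of each cell type or pathway, and the 15 genes highest in both groups, with others named as such. Members and lists were chosen with earlier results of these data known. Alternatives changed the normalization, channel, offset, filter, probe rule, threshold, block and the arrays used. Some genes that meet the rule are not reported here. Exon and UTR positions of probes were not analysed here.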

Additional observations from a re-analysis of the deposited data

How the results depend on the processing

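The number of called genes was 5941 (2175 higher, 3766 lower). It was 14068 (3770 higher, 10298 lower) from Cy3 alone, 2143 (625 and 1518) with a minimum difference of 2 and 2423 (757 and 1666) with limma's treat. Called higher were 3689 genes with the scanner software's log ratio and 3616 with no minimum difference, and called lower were 2176 with a filter on both arrays of 1 group, where 47.1% of the calls were higher. Leaving out 1 array gave 5490 to 6224 called, 2118 to 2334 higher and 3351 to 3984 lower. Genes high in both numbered 438 at a level of 1, 71 at a level of 3 and 159 to 169 with 1 array left out. Cy3 alone has no reference level and gave no such count. Quantile normalization of the average intensities left log ratios as they were, by construction.

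Deviations of same-numbered arrays from their group means correlated at r = -0.097 over 2 pairs. With 2 arrays a group, the deviations of one array are those of the other with the sign turned. The pairs are thus not independent, and the value is no test of a shared batch. With replicate number as a block 5960 genes were called (2179 higher, 3781 lower), 5920 of them shared with the calls above.

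Differences changed sign with the scanner software's log ratio for Krt23 (-0.99), Cdh1 (-0.29), Ambp (-0.88), Foxa3 (-1.68) and Gata4 (-0.88). From Cy3 alone, where the median of all genes was -0.98, they did for Reg3g (0.11), Clu (1.95), Urah (0.39), Foxa2 (0.38), Cldn3 (0.56), Arhgef16 (1.15), Pdx1 (-0.76), Alb (-0.96), Foxa3 (-1.44), Gata4 (-1.56), Isl1 (-0.17) and Nrarp (-0.76). An offset of 10 did so for Krt23 (-0.71), Ambp (-0.77) and Foxa3 (-0.27). With 1 array left out, the sign changed within a range of -1.03 to 0.038 for Clu (positive without EM organoid replicate 1), -0.31 to 0.71 for Krt23 (negative without replicate 2 of either group), -0.31 to 0.32 for Ambp (negative without EM organoid replicate 2 or pancreas replicate 1), -0.56 to 0.76 for Foxa3 (negative without replicate 1 of either group) and -0.56 to 1.25 for Gata4 (negative without EM organoid replicate 2). The cause was not tested. Of these genes, Cldn3, Pdx1, Isl1 and Nrarp were called in the main fit, the others not. From Cy3 alone 4 of the others also met the thresholds of a call, with the sign turned. Their limma adjusted p there was 0.00315 for Clu, 0.00227 for Arhgef16, 0.0398 for Foxa3 and 0.0237 for Gata4.

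Among called genes named, a call was also lost without EM organoid replicate 1 for Dmbt1, Cldn3, Nrarp, Cxcl1, Cxcl10, Sox10 and Kdm5d. It was lost without EM organoid replicate 2 for Dmbt1 and Lsr, without pancreas replicate 1 for Dmbt1, Cldn3, Pdx1, Itpr3, Nrarp, Cxcl10, Sox10 and Ass1, and without pancreas replicate 2 for Lsr, Cxcl10 and Kdm5d. From Cy3 alone 10298 of all 21048 genes were called lower. Within the lists, those called lower there were 8 of 8 acinar transcription factors, 7 of 25 foregut factors, 6 of 21 Wnt targets, 12 of 14 endothelial, 13 of 15 lymphocyte, 10 of 12 adipocyte, 4 of 4 red blood cell and 6 of 8 nerve markers. With the scanner software's log ratio 10 of 25 junction genes were called higher. Signal limits the dim genes: 297 calls were above background on none of the 4 arrays.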
